A study of Mus musculus with 12 samples.

Results

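The mRNA levels of 10 genes that write, copy and remove DNA methylation were compared between 3 lines of mouse embryonic stem cells (ESCs). The genes were taken by symbol from the deposited expression table: Uhrf1, Uhrf2, Dnmt1, Dnmt3a, Dnmt3b, Dnmt3l, Tet1, Tet2, Tet3 and Tdg. All 10 were among the 50978 genes of the table, and all 10 were among the 12914 genes that passed the filter on low values. The parental line was E14, a strain 129 ESC line, cultured without feeder cells in serum and LIF. The other lines were made from E14 by Cas9-assisted insertion at the Rosa26 locus of HA/FLAG-tagged Pramel7 under the CAG promoter, followed by puromycin selection and the isolation of single-cell clones. ESC + H/F-PRAMEL7WT carries the full-length protein, and ESC + H/F-PRAMEL7ΔN carries a protein that lacks 50 amino acids at its N-terminus, as the labels give it, while the study's text gives another size. PRAMEL7 is a substrate receptor of CUL2 ubiquitin ligases, and its N-terminus holds the elements that bind CUL2. Each line was represented by 2 RNA libraries, made per the labels from independent dishes. Since 1 line stands for each transgene, what sets that line apart cannot be told apart from what the transgene does. No methylated DNA and no protein were measured in these libraries.

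In mammals, DNA methylation lies mostly on cytosines of CpG dinucleotides. After replication, UHRF1 recognises DNA methylated on 1 strand and brings in DNMT1, which restores the mark on the new strand. DNMT3A and DNMT3B set new methylation with the help of DNMT3L, a family member without catalytic activity. The TET dioxygenases oxidise methylcytosine with iron and 2-oxoglutarate, and TDG, a DNA glycosylase, excises the further oxidised bases for repair. ESCs in serum are known for highly methylated DNA, whereas ground-state ESCs and the inner cell mass have low methylation, and the UHRF1 protein is a known target of PRAMEL7. The comparison of the lines therefore asked how far the transcripts of this machinery differed when PRAMEL7 was expressed with or without its CUL2-binding N-terminus.

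The libraries held 18199214 to 19777294 reads on genes. Pramel7 itself was at 0.217 and 0.258 CPM (reads per 1000000) in the parental libraries, at 46.2 and 51.2 CPM in ESC + H/F-PRAMEL7WT and at 398 and 431 CPM in ESC + H/F-PRAMEL7ΔN. The labels of the 3 lines were thus met, but the deletion line held 8.50-fold more Pramel7 RNA than the full-length line, and the form and the dose of the transgene cannot be told apart in these lines. All 9 ESC markers were above 1 CPM in every line, with Pou5f1 between 659 and 855 CPM. The 7 fibroblast markers summed to 21.1 to 55.6 CPM, nearly all of it Thy1, with Dcn and Lum at 0 in every library. The 2 parental libraries differed more from each other than those of the other lines did, with a median absolute log2 difference over tested genes of 0.188 against 0.101 and 0.119.

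The upstream sequences of 4 of the genes are shown, because Dnmt3a, Dnmt3b and Tet2 differed most between the transgenic lines and Uhrf1 was the only member that was higher in both. Each is the 250 bases before an annotated RefSeq transcript start in GRCm38.p6, read 5′ to 3′ on the strand of the gene, with CpG dinucleotides in capitals. The Uhrf1 sequence, chr17:56304063-56304312 on the plus strand, precedes the inner of its 2 annotated starts.
Uhrf1: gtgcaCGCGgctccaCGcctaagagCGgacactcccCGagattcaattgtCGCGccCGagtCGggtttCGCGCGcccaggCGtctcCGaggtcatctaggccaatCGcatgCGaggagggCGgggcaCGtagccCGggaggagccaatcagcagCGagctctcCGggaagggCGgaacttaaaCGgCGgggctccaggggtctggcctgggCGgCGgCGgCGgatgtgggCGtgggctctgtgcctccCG
The Dnmt3a sequence, chr12:3891494-3891743 on the plus strand, precedes the innermost of its 3 annotated starts.
Dnmt3a: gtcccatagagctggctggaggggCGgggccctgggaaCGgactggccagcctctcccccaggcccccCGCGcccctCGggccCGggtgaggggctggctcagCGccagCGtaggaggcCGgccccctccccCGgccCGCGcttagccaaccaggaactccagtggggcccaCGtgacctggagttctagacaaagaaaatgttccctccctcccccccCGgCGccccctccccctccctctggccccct
The Dnmt3b sequence is chr2:153649199-153649448 on the plus strand.
Dnmt3b: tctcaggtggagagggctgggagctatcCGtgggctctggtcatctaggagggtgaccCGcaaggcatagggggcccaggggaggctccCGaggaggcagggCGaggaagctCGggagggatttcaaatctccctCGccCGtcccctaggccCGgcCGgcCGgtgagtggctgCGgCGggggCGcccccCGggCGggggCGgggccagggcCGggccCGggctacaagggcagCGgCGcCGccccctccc
The Tet2 sequence is chr3:133544391-133544640 on the minus strand.
Tet2: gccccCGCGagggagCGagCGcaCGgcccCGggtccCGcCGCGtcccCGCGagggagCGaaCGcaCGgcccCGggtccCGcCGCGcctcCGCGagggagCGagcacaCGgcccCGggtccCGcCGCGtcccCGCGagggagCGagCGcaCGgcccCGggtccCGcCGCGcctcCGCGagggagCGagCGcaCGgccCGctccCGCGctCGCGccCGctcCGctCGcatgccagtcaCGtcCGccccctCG
In the 250 bases shown Tet2 had 51 CpG, Uhrf1 30, Dnmt3b 21 and Dnmt3a 15. The 250 bases before the other starts had 38 and 40 CpG for Dnmt3a and 10 for Uhrf1, so the order depends on the start. Over 300-base windows that also hold the first 50 transcribed bases, all 10 genes matched, in 17 windows, and the median over the 32851 windows of 27025 genes was 7 CpG, with 31 at the 90th percentile. The Tet2 window had 57 CpG and the Dnmt3b window 30, whereas the 3 windows of Dnmt3l had 3 to 6 CpG. Letters bound by E2F factors (TTTGGCGC, TTTCCCGC or TTTCGCGC, searched on both strands) occurred in 1.84% of all windows, and among the members in the inner window of Uhrf1, with 1 match, and in a window of Dnmt1 with 33 CpG, with 2. The E-box CACGTG occurred in 7.15% of all windows, with 1 match each in the innermost window of Dnmt3a, in a window of Dnmt3l and in that of Tdg. These matches are counts of letters, and the libraries do not say which start was used.

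Levels were set side by side per kb of annotated exon, since longer transcripts give more reads. In parental ESCs Uhrf1 had the highest level, at 130 ± 7.05 CPM per kb (SD, n = 2), followed by Dnmt3l at 92.3 ± 16.0 and Dnmt1 at 66.7 ± 8.37. Dnmt3b, at 27.0 ± 3.88 CPM per kb, Tet1, at 13.5 ± 1.16, and Tet2, at 7.29 ± 1.39, came next. Dnmt3a, at 5.49 ± 0.386 CPM per kb, and Uhrf2, at 5.43 ± 0.104, overlapped between libraries and had no order. Tdg was at 4.87 ± 0.0304 CPM per kb and Tet3 was lowest, at 0.642 ± 0.135, so that the highest and lowest members lay 202-fold apart. The first 5 places of this order were held by the same genes in all 3 lines. Below them, Tet2 and Dnmt3a overlapped in ESC + H/F-PRAMEL7WT, Tdg and Uhrf2 overlapped in ESC + H/F-PRAMEL7ΔN, and Dnmt3a had gone to 9th place in the latter line, at 1.92 ± 0.0165 CPM per kb. Exon lengths join the exons of all annotated isoforms, which places genes with long alternative exons too low, and does not touch the comparisons of a gene between lines.

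**Figure D1:**
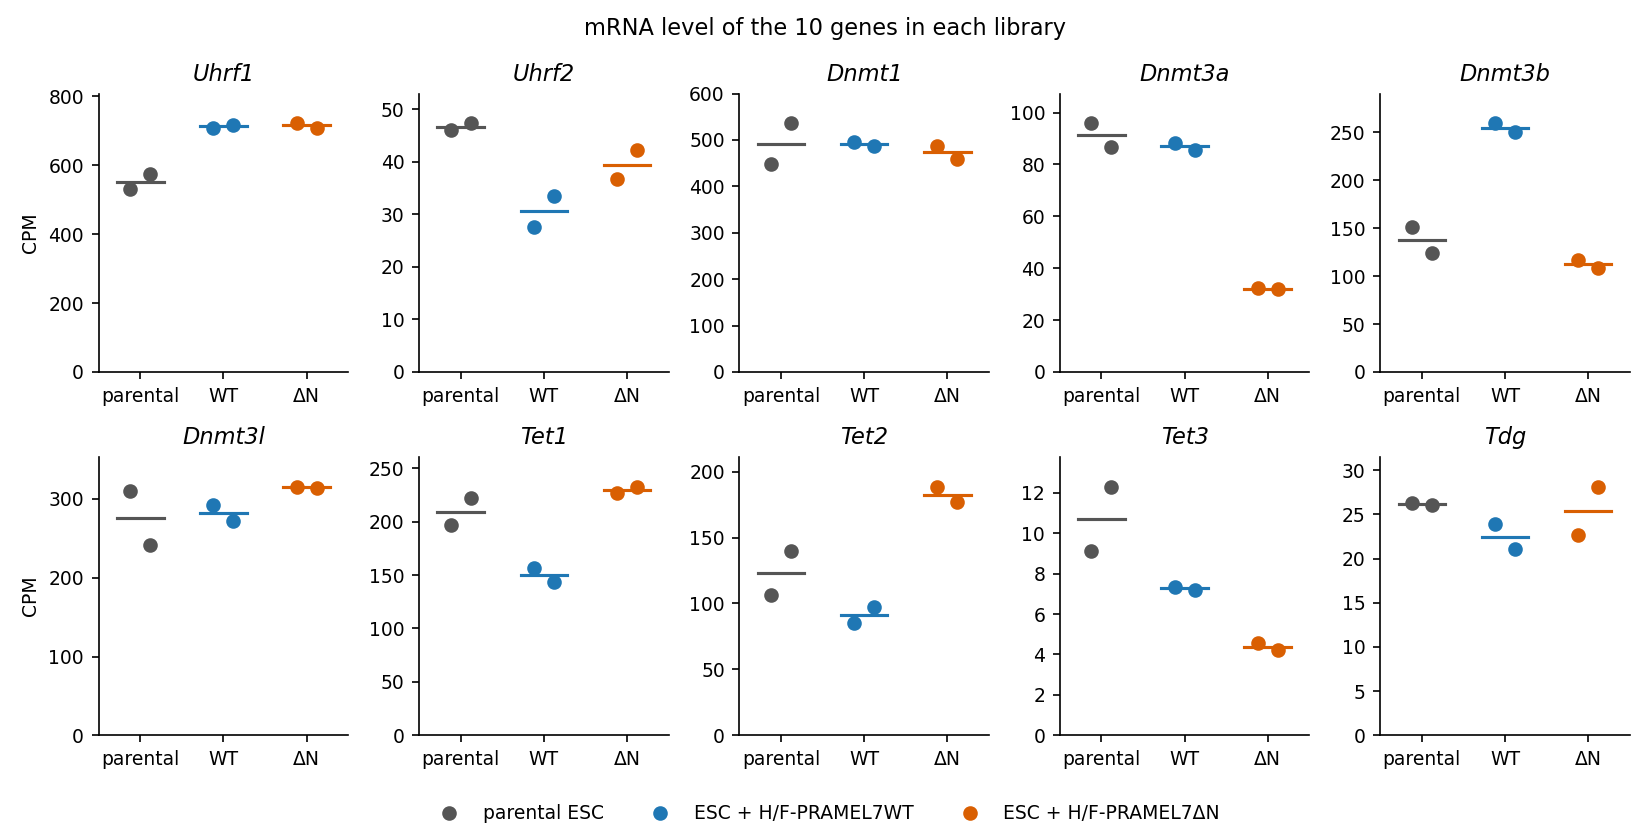
mRNA level in CPM (linear axis from 0) of each of the 10 genes; each point is 1 library and each bar the mean of the 2 libraries of a line. The points of ESC + H/F-PRAMEL7ΔN for Dnmt3a lie at 31.8 and 32.2 CPM, well below the 85.5 to 95.9 CPM of the other 4 libraries, and those of ESC + H/F-PRAMEL7WT for Dnmt3b lie at 250 and 260 CPM, above the 109 to 152 CPM of the others.

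In ESC + H/F-PRAMEL7WT against parental ESCs, Uhrf1 and Dnmt3b were higher and Uhrf2, Tet1 and Tet2 were lower, by limma on log2(CPM + 1) with Benjamini-Hochberg adjustment over all tested genes and a threshold of 0.05. Of the 10 members, 2 were thus called higher, where 8.71% of all tested genes were, and 3 were called lower, where 16.3% were. In ESC + H/F-PRAMEL7ΔN against the same parental libraries, Uhrf1 and Tet2 were higher and Dnmt3a and Tet3 lower, with 6.25% of all genes called higher and 13.6% called lower. Between the transgenic lines, Dnmt3a, Dnmt3b and Tet3 were higher in the full-length line and Tet1 and Tet2 were lower, with 10.9% and 9.44% of all genes called in these directions. The median log2 fold change of the members was -0.14, -0.05 and -0.08 in the 3 comparisons, beside -0.08, -0.06 and -0.02 over all tested genes. The genome-wide split depended on the scaling: with median-ratio scaling in place of the deposited one, 1673 genes were higher and 1495 lower in the full-length line, against 1125 and 2109, and 1122 were higher and 1368 lower in the deletion line, against 807 and 1759. Since the 2 comparisons with parental ESCs share their control libraries, their values are set side by side and the lines are compared directly.

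**Figure D2:**
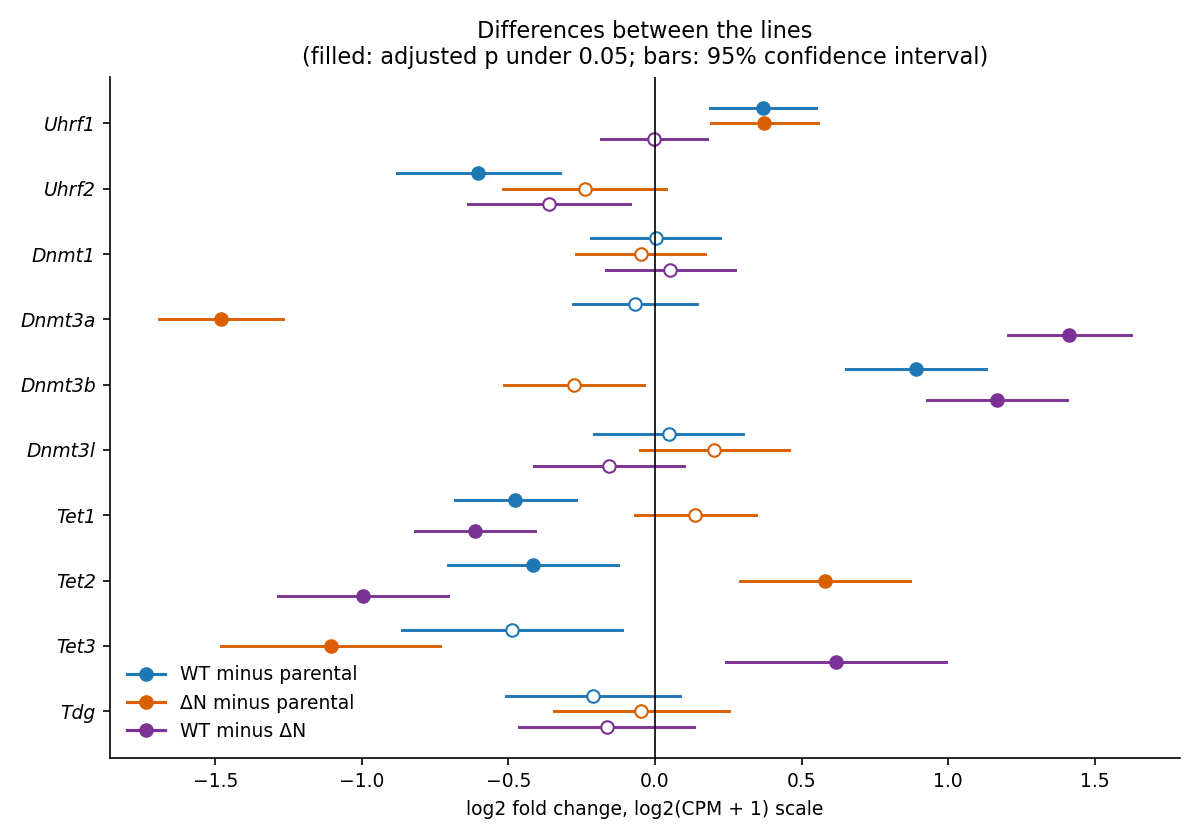
Log2 fold change of each gene on the log2(CPM + 1) scale in the 3 comparisons, with 95% confidence intervals from limma; filled points passed an adjusted p of 0.05. Dnmt3a and Tet3 in the deletion line, at -1.48 and -1.11, stand farthest from 0 in the comparisons with parental ESCs. Dnmt3b in the full-length line follows at 0.89, and the direct comparison of the lines (purple) passed for 5 genes.

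Uhrf1 encodes the reader of hemimethylated DNA that is the protein target of PRAMEL7. It lies on chromosome 17 at 56303321-56323486 (mm10). Its transcript was at 531 and 573 CPM in parental ESCs, 709 and 716 CPM in ESC + H/F-PRAMEL7WT and 721 and 709 CPM in ESC + H/F-PRAMEL7ΔN. Both transgenic lines were therefore above both parental libraries, and the transgenic lines overlapped each other. The rise was 1.29-fold in either line, with a log2 fold change of 0.37 ± 0.08 (SE) and adjusted p = 0.0115 with PRAMEL7WT, and 0.37 ± 0.08 and adjusted p = 0.0118 with PRAMEL7ΔN. Both values lie under the log2 limit of 0.58 that the study used. The study, with another test and a fold limit, reported no significant change of Uhrf1 mRNA with PRAMEL7WT. In its protein measurements UHRF1 was strongly reduced with PRAMEL7WT and not affected with PRAMEL7ΔN. Directly compared here, the Uhrf1 mRNA of the transgenic lines differed by -0.005 on the log2 scale, with a 95% interval from -0.19 to 0.18. The Uhrf1 calls against parental ESCs needed both libraries of the transgenic line, and without either one the log2 fold changes were 0.36 to 0.39. Without either parental library they were 0.31 to 0.42 with PRAMEL7WT and 0.32 to 0.43 with PRAMEL7ΔN.

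Uhrf2, on chromosome 19 at 30030513-30093722, encodes the paralogue of UHRF1, which does not replace it in maintenance methylation. Its level was 46.0 and 47.3 CPM in parental ESCs, 27.5 and 33.5 CPM with PRAMEL7WT and 36.7 and 42.1 CPM with PRAMEL7ΔN. The 3 lines did not overlap. The full-length line was 1.53-fold lower than parental ESCs (log2 fold change -0.60 ± 0.12, adjusted p = 0.00875), a call that was lost without its first library (-0.46, adjusted p = 0.105). The deletion line, at -0.24 and adjusted p = 0.212, did not pass, and neither did the difference between the lines, at -0.36 and adjusted p = 0.0663. That difference passed in a fit of only the 4 transgenic libraries, at adjusted p = 0.0162, or without the first or second parental library, at 0.014 or 0.0142. The ratio of Uhrf1 to Uhrf2 per kb was 23.9 ± 0.840 in parental ESCs, 47.5 ± 6.24 with PRAMEL7WT and 36.8 ± 4.0 with PRAMEL7ΔN.

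Dnmt1, the maintenance methyltransferase, on chromosome 9 at 20907209-20959888, was at 448 and 536 CPM in parental ESCs, 496 and 486 CPM with PRAMEL7WT and 488 and 460 CPM with PRAMEL7ΔN. The parental libraries spanned those of the transgenic lines. The log2 fold change was 0.003 with a 95% interval from -0.22 to 0.22 for PRAMEL7WT, and -0.05 with an interval from -0.27 to 0.17 for PRAMEL7ΔN, with adjusted p of 0.988 and 0.768. Dnmt1 per unit of Uhrf1 was 0.514 ± 0.0366 per kb in parental ESCs, 0.398 ± 0.00871 with PRAMEL7WT and 0.383 ± 0.0112 with PRAMEL7ΔN.

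The partners of maintenance methylation were described by a list of 12 genes, all of which were tested. The counts of this and the later lists stand beside the shares of all tested genes. These were 8.71% higher and 16.3% lower with PRAMEL7WT, and 6.25% higher and 13.6% lower with PRAMEL7ΔN. It joins the clamp PCNA and its factor PCLAF, the ligase LIG1, the remodeller HELLS with CDCA7, and others that act beside UHRF1 and DNMT1. With PRAMEL7WT 0 were higher and 1 was lower, and with PRAMEL7ΔN 1 was higher and 2 were lower, while the list median was 0.06 in each. The largest change was that of Dppa3, which encodes a protein known to keep UHRF1 from chromatin. Dppa3 was at 9.50 and 14.05 CPM in parental ESCs, 1.92 and 1.87 CPM with PRAMEL7WT and 1.00 and 0.95 CPM with PRAMEL7ΔN. Both transgenic lines were below both parental libraries, with log2 fold changes of -2.12 (adjusted p = 0.000527) and -2.67 (adjusted p = 5.02e-05), which understate the change at such low levels. In the deletion line Zfp57, whose product protects methylated imprints, rose by 0.38 and Cdca7l fell by 0.58 on the log2 scale. Transcripts of S phase vary with the share of replicating cells, and in bulk samples fewer cells of a type and less RNA per cell cannot be told apart. Of 21 replication genes, 6 rose and 0 fell with PRAMEL7WT, where Pola1 rose by 0.58, Ccne1 by 0.44 and Cdt1 by 0.38. With PRAMEL7ΔN 4 rose, among them Rrm2 by 0.61, Ccne1 by 0.53 and Mcm4 by 0.29, and Mcm2 fell by 0.32. The list medians were 0.16 and 0.13, beside -0.08 and -0.06 over all genes, and their part in the rise of Uhrf1 was not tested.

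Among the de novo enzymes the lines parted. Dnmt3b, on chromosome 2 at 153649450-153687730, encodes the main de novo enzyme of the early embryo. It was at 152 and 124 CPM in parental ESCs, 260 and 250 CPM with PRAMEL7WT and 117 and 109 CPM with PRAMEL7ΔN. The full-length line lay above and the deletion line below all parental libraries. The rise with PRAMEL7WT was 1.85-fold (log2 fold change 0.89 ± 0.11, adjusted p = 0.00115). The deletion line, at -0.28 ± 0.11 and adjusted p = 0.103, did not pass, except without the second parental library (-0.42, adjusted p = 0.0027). Directly, Dnmt3b was 2.25-fold higher with PRAMEL7WT than with PRAMEL7ΔN (1.17 ± 0.11, adjusted p = 0.000148).

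Dnmt3a, on chromosome 12 at 3806007-3914443, showed the largest change of any member. It was at 95.9 and 86.8 CPM in parental ESCs, 88.4 and 85.5 CPM with PRAMEL7WT and 32.2 and 31.8 CPM with PRAMEL7ΔN. The full-length line overlapped the parental libraries, and the deletion line was far below both. The fall with PRAMEL7ΔN was 2.85-fold (log2 fold change -1.48 ± 0.09, adjusted p = 1.92e-05), at percentile 0.9 of all tested genes, whereas PRAMEL7WT gave -0.07 with an interval from -0.28 to 0.14. The lines differed 2.72-fold (1.41 ± 0.09, adjusted p = 2.31e-05). Dnmt3l, on chromosome 10 at 78041947-78063622, encodes the non-catalytic cofactor of both enzymes, and its level was 310 and 242 CPM in parental ESCs, 293 and 273 CPM with PRAMEL7WT and 316 and 314 CPM with PRAMEL7ΔN. The deletion line was above the other 4 libraries, but its log2 fold change of 0.20, with an interval from -0.05 to 0.46, did not pass at adjusted p = 0.252, except without the first parental library (0.38, adjusted p = 0.00311). Dnmt3l shares 67 exon bases, 2.20% of its exons, with Aire on the opposite strand, whose level was 18.4 to 23.9 CPM, and the kit named in the labels does not mark strand.

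Summed per kb, Dnmt3a and Dnmt3b reached 32.5 ± 4.27 CPM per kb in parental ESCs, 55.2 ± 1.39 with PRAMEL7WT and 24.1 ± 1.17 with PRAMEL7ΔN. Dnmt3b led in every library, and the ratio of Dnmt3b to Dnmt3a was 4.90 ± 0.362 in parental ESCs, 9.56 ± 0.0239 with PRAMEL7WT and 11.5 ± 0.501 with PRAMEL7ΔN. The ratio was thus higher in both transgenic lines than in parental ESCs, through a higher Dnmt3b level in the former and a lower Dnmt3a level in the latter. The genes whose log2 level was most like that of Dnmt3b over the 6 libraries, among 8559 with a mean of at least 10 CPM, were Sulf1 (Pearson r = 0.998), Anapc5 (0.996) and Aoah (0.996), and those most like Dnmt3a were Ddr2 (0.998), Ank (0.998) and Lpar1 (0.996). These 6 libraries fall into 3 lines, so the values only describe a shared order of the lines. Ddr2, a collagen receptor, went from 68.5 and 72.4 CPM in parental ESCs to 10.4 and 11.5 CPM with PRAMEL7ΔN. Dnmt3b is also a marker of primed epiblast, and among the other markers of that list Otx2 was at 44.4 and 43.5 CPM in parental ESCs, 61.9 and 63.4 CPM with PRAMEL7WT and 24.04 and 21.2 CPM with PRAMEL7ΔN. Otx2 thus had the same order of lines as Dnmt3b. Krt18 had the reverse order, at 13.2 and 16.6 CPM, 10.02 and 10.5 CPM and 22.7 and 24.2 CPM in the same lines. Pou3f1 was between 2.68 and 4.10 CPM, and Fgf5 was at most 0.0542 CPM. The 5 listed markers, Dnmt3b among them, summed to 187 to 212 CPM, 328 to 336 CPM and 158 to 167 CPM in these lines, with 4 of the 5 above 1 CPM in each. Most of each sum was Dnmt3b itself, at 109 to 260 CPM, so the sum is no separate context for its level. A link between the other markers and the level of Dnmt3b was not tested.

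**Figure D3:**
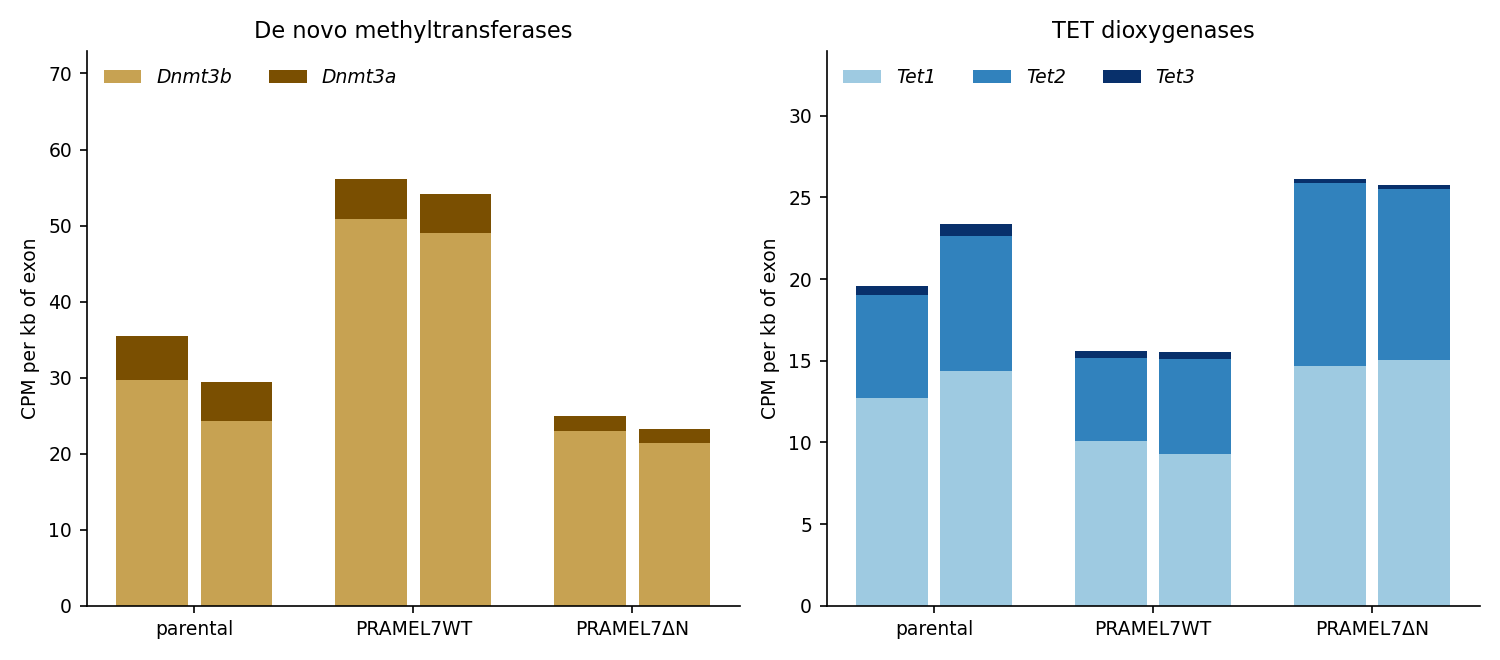
Stacked level per kb of annotated exon (CPM per kb, linear axis from 0) of Dnmt3b and Dnmt3a on the left and of Tet1, Tet2 and Tet3 on the right; each bar is 1 library and the 2 bars of a line stand together. The de novo sum was highest with PRAMEL7WT, at 54.2 and 56.1, where the Tet sum was lowest, at 15.5 and 15.6.

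The TET genes were ordered the other way for Tet1 and Tet2. Tet1, on chromosome 10 at 62804570-62908996 and the best expressed of the 3 genes, was at 197 and 222 CPM in parental ESCs, 156 and 144 CPM with PRAMEL7WT and 227 and 233 CPM with PRAMEL7ΔN. All 3 lines were apart, with the full-length line lowest. Tet1 was 1.4-fold lower with PRAMEL7WT than in parental ESCs (log2 fold change -0.48 ± 0.09, adjusted p = 0.0068), which was lost without the second library of that line (-0.42, adjusted p = 0.0887). With PRAMEL7ΔN the value was 0.14, with an interval from -0.07 to 0.34 and adjusted p = 0.334. Between the lines Tet1 was 1.53-fold lower with PRAMEL7WT (-0.61 ± 0.09, adjusted p = 0.00192).

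Tet2, on chromosome 3 at 133463679-133545139, encodes a TET enzyme without the CXXC DNA-binding domain of TET1 and TET3. It was at 106 and 140 CPM in parental ESCs, 84.9 and 97.6 CPM with PRAMEL7WT and 189 and 177 CPM with PRAMEL7ΔN. It was the only member called in opposite directions in the transgenic lines. The deletion line was 1.48-fold higher than parental ESCs (log2 fold change 0.58 ± 0.13, adjusted p = 0.0132) and the full-length line 1.35-fold lower (-0.42 ± 0.13, adjusted p = 0.0421). Both calls were lost in several alternatives. The first was lost without the filter on low values (adjusted p = 0.0589) and without the first or second library of the deletion line (0.11 and 0.0667), its value was 0.39 without the first parental library, and the second without the second parental library (-0.22, adjusted p = 0.0941), without either full-length library (0.272 and 0.102), without either deletion library (0.0731 and 0.0727) and with median-ratio scaling (-0.33, adjusted p = 0.0833). The second was also lost without the filter (0.124), in a fit of only the lines compared (0.0746), with quantile normalization (0.061) and without the trend (0.0941). The lines themselves differed 2.00-fold (-0.996 ± 0.13, adjusted p = 0.000965), and that call held in every alternative that tested it.

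Tet3, on chromosome 6 at 83362373-83459084, the form best known from the oocyte and zygote, had the lowest level of the family, with 80 to 226 reads per library. It was at 9.13 and 12.3 CPM in parental ESCs, 7.34 and 7.21 CPM with PRAMEL7WT and 4.57 and 4.22 CPM with PRAMEL7ΔN. The lines did not overlap. With PRAMEL7ΔN Tet3 was 2.44-fold lower than in parental ESCs (log2 fold change -1.11 ± 0.17, adjusted p = 0.00227), a value that was -0.74 with a pseudocount of 5. With PRAMEL7WT the value was -0.49 ± 0.17 with adjusted p = 0.0581, which passed with a pseudocount of 5 (adjusted p = 0.0484) and without the first parental library (-0.69, adjusted p = 0.00714). Between the lines Tet3 was 1.66-fold higher with PRAMEL7WT (0.62 ± 0.17, adjusted p = 0.0293), which was lost without the first or second library of the full-length line (adjusted p = 0.16 and 0.151) or of the deletion line (0.0942 and 0.18), without the filter on low values (0.107) and with limma-voom on recovered reads (0.0514). With a pseudocount of 5 the difference was 0.39, still past the threshold.

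The neighbours of Tet3 moved as well. Among the 74 other tested genes whose midpoint lies within 5 Mb of its own, 45 were lower and 0 higher with PRAMEL7WT, with a median log2 fold change of -0.51, and 47 were lower and 0 higher with PRAMEL7ΔN, with a median of -0.55. The 33 genes 5 to 10 Mb to one side had medians of -0.58 and -0.60, and the 34 genes 10 to 15 Mb to the other side -0.10 and 0.42. Over the whole of chromosome 6 the medians were -0.26 and 0.25. Tet3 lay 0.02 above the median of its neighbours with PRAMEL7WT, where 42 of the 74 were at or below it, and 0.55 below it with PRAMEL7ΔN, where 4 of the 74 were. In the direct comparison the neighbours had a median of 0.01 and Tet3 lay 0.61 above it. The part of this regional difference in the fall of Tet3 was not tested. Around the other 9 members the medians of the genes within 5 Mb lay between -0.22 and 0.13 in the comparisons with parental ESCs.

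**Figure D4:**
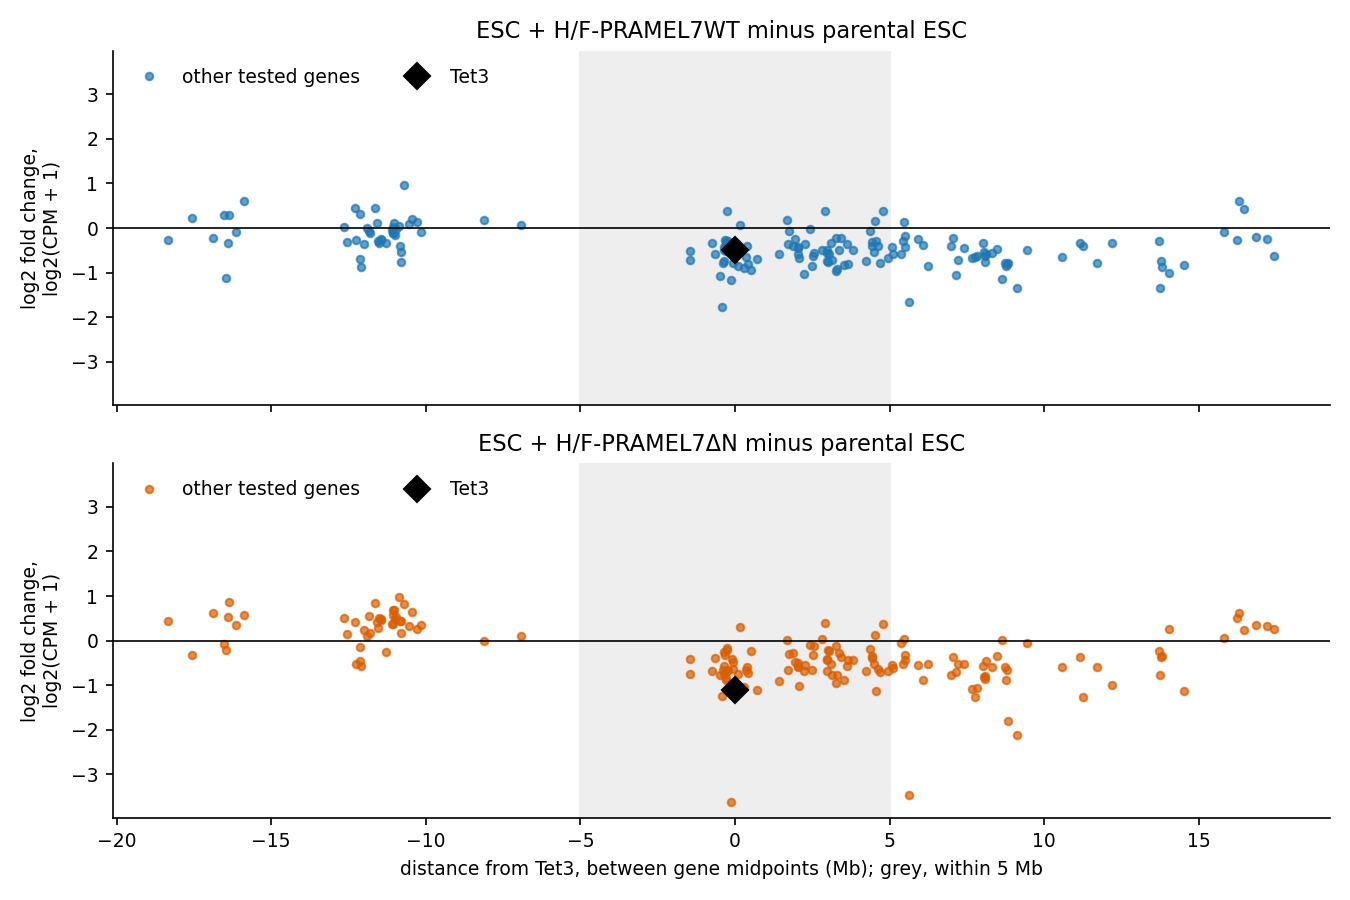
Log2 fold change on the log2(CPM + 1) scale against parental ESCs of the tested genes of chromosome 6 within 20 Mb of Tet3, by distance between gene midpoints in Mb, for ESC + H/F-PRAMEL7WT (top) and ESC + H/F-PRAMEL7ΔN (bottom). Genes in the grey band, within 5 Mb, lie mostly below 0 in both lines, and Tet3 (black diamond) lies within them at -0.49 in the top panel and near their lower edge at -1.11 in the bottom panel.

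Summed per kb, the 3 Tet genes reached 21.5 ± 2.68 CPM per kb in parental ESCs, 15.5 ± 0.0444 with PRAMEL7WT and 25.96 ± 0.255 with PRAMEL7ΔN, the reverse of the order of the summed de novo enzymes. Tet3 made up 2.97% ± 0.255 of this sum in parental ESCs, 2.80% ± 0.0268 with PRAMEL7WT and 1.01% ± 0.0461 with PRAMEL7ΔN, while Tet2 made up 33.8% ± 2.23, 34.8% ± 3.52 and 41.7% ± 1.53. Tdg, on chromosome 10 at 82629828-82650799, which acts after the TET enzymes, was at 26.3 and 26.03 CPM in parental ESCs, 23.9 and 21.0 CPM with PRAMEL7WT and 22.7 and 28.1 CPM with PRAMEL7ΔN. Only the full-length line was below both parental libraries, by -0.21 on the log2 scale with an interval from -0.51 to 0.09 and adjusted p = 0.262. The deletion line gave -0.05 with an interval from -0.35 to 0.25. Tdg shares 367 exon bases, 6.80% of its exons, with Glt8d2 on the opposite strand, which was at 0.152 to 0.619 CPM.

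Genes that act with the TET enzymes and TDG were described by further lists. Of 12 listed symbols of cofactors and regulators of the TET enzymes, among them Dcaf1 and Vprbp for the same gene, 9 were tested. With PRAMEL7WT Cxxc5, a CXXC protein of the family that binds TET2, rose by 0.62 and Idh2, an isocitrate dehydrogenase that makes 2-oxoglutarate in mitochondria, rose by 0.30. With PRAMEL7ΔN its cytosolic counterpart Idh1 fell by 0.38. Of 16 tested genes of base excision and deamination, 2 rose and 3 fell with PRAMEL7WT, where 8.71% and 16.3% of all tested genes did. With PRAMEL7ΔN 2 rose and 1 fell, where 6.25% and 13.6% did. The list medians were -0.03 and -0.04. Lig3, the ligase that pairs with XRCC1, was at 92.2 and 104 CPM in parental ESCs, 55.7 and 55.5 CPM with PRAMEL7WT and 59.7 and 59.9 CPM with PRAMEL7ΔN, and fell by 0.81 and 0.70 on the log2 scale. The glycosylase gene Mbd4 fell by 0.70 and the deaminase gene Apobec1 by 0.52 with PRAMEL7WT, where Apobec2 rose by 0.87 and Apex1 by 0.44. With PRAMEL7ΔN Apobec1 rose by 0.61 and Gadd45a by 0.86, so that Apobec1, like Tet2, was called in opposite directions. Mbd4, Apobec1 and Gadd45a, like Dppa3 and Mcm2 above, lie on chromosome 6, whose medians differed between the lines as given above. Mcm2 lies 5.48 Mb from Tet3, among the genes 5 to 10 Mb away with a median of -0.60 in the deletion line, where its own value was -0.32. The part of this regional difference was not tested.

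A further list held 10 genes, of ZBTB proteins that bind methylated CpG and of MBD family proteins, with Mbd4 counted again. Of these, 1 rose and 2 fell with PRAMEL7WT and 0 rose and 1 fell with PRAMEL7ΔN, with a median of -0.09 in each. Mbd3, a subunit of the NuRD complex, rose by 0.45 with PRAMEL7WT, and Mbd5 fell by 0.71 with PRAMEL7WT and by 0.63 with PRAMEL7ΔN. Of 13 tested genes of the methyl donor cycle, which supplies S-adenosylmethionine to the DNMT enzymes, 1 rose and 2 fell with PRAMEL7WT. They were Shmt2, which rose by 0.27, and Mat2b and Mtr, which fell by 0.77 and 0.30. With PRAMEL7ΔN 0 rose and 2 fell, Mtrr by 0.48 and Shmt1 by 0.30. The list medians of -0.03 and -0.02 were close to those of all genes.

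Germline genes kept silent by promoter methylation are a common readout of this machinery, and 15 of 18 listed genes were tested. With PRAMEL7WT 3 rose and 2 fell, with a median of 0.28, and with PRAMEL7ΔN 0 rose and 5 fell, with a median of -0.20. Between the lines 7 were higher with PRAMEL7WT and 1 was lower, where 10.9% and 9.44% of all tested genes were. The median between the lines was 0.60 beside -0.02 over all genes. Fkbp6, a cochaperone of the piRNA pathway, was at 0.929 and 0.651 CPM in parental ESCs, 4.86 and 5.01 CPM with PRAMEL7WT and 0.10 and 0.0528 CPM with PRAMEL7ΔN, and passed in each comparison (1.73, -0.73 and 2.46 on the log2 scale). Its last pair of values stands for 2 reads and 1 read, so the size of the changes that use them depends on the pseudocount. Fkbp6 passed the filter on low values only through the full-length line, so its selection favoured a higher level there. Rpl10l, a ribosomal protein gene of the testis, was at 31.6 and 40.0 CPM, then 76.4 and 82.1 CPM and then 21.2 and 23.2 CPM in the same lines. Its log2 fold change was 1.13 with PRAMEL7WT and -0.65 with PRAMEL7ΔN, and the lines differed by 1.79. Mov10l1 rose by 0.58 with PRAMEL7WT, and Mael was 0.97 higher with PRAMEL7WT than with PRAMEL7ΔN. Brdt, a bromodomain gene of the testis, fell in both lines, by 1.61 and 1.70, from 2.99 and 4.07 CPM to at most 0.528 CPM, and Syce1 fell by 0.53 and 1.20. Since Brdt passed the filter only through the parental libraries, its selection favoured a fall in both lines. Ddx4 was the gene that was lower with PRAMEL7WT than with PRAMEL7ΔN, by -0.56 on the log2 scale. The list median with PRAMEL7WT rested on single libraries, and was 0.03 or 0.003 without the first or second full-length library and -0.06 without the second parental library.

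**Figure D5:**
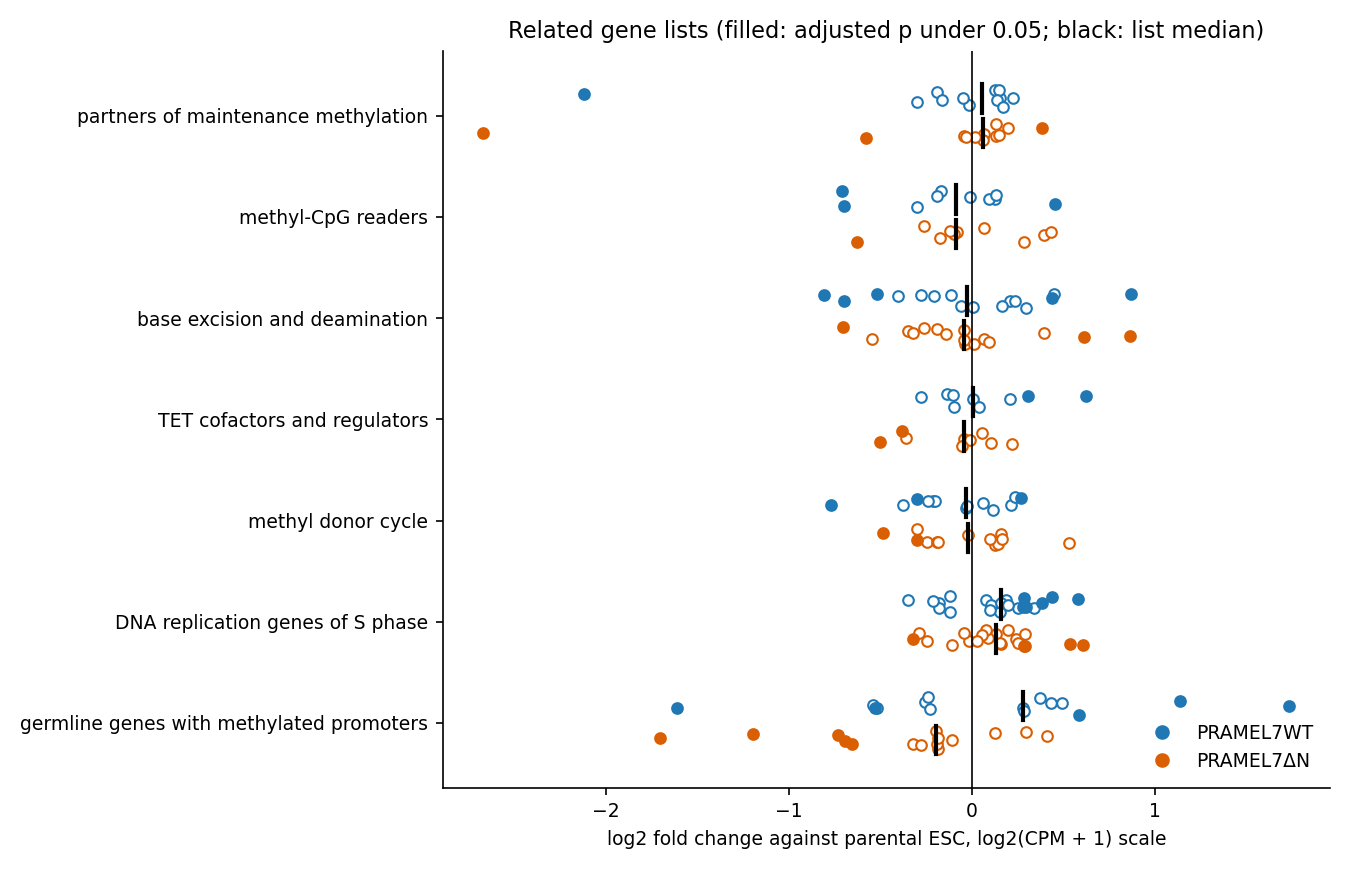
Log2 fold change against parental ESCs on the log2(CPM + 1) scale of the tested genes of 7 related lists, in blue for ESC + H/F-PRAMEL7WT and orange for ESC + H/F-PRAMEL7ΔN; each point is 1 gene, filled where adjusted p passed 0.05, and the black bar is the list median. The points farthest to the left are Dppa3, at -2.12 and -2.67, and the germline list has its median at 0.28 in blue and at -0.20 in orange.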

How the data were processed

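RNA of 6 libraries, 2 from each of 3 lines, was analysed, and the CHD4 ChIP-seq and input libraries of the series were not used here. Per the labels, libraries were made from polyadenylated RNA with a TruSeq kit (RNA Sample Prep, not the stranded version), and per the study's methods the authors filtered the reads with SortMeRNA (ribosomal RNA) and Trimmomatic (trimming), aligned them to mm10 by STAR, and deposited RPKM values. The authors' comparison tables hold log2 fold changes, standard errors, test statistics and p-values, which were not used, and a mean signal per gene (DESeq2 baseMean), from which the length that the deposited RPKM values had been divided by was tested. It was the gene span from start to end for 98.4% of 9836 genes within 10%, and the exon length for 9.2%. RPKM values were therefore multiplied by the GENCODE M21 span and a constant that set the mean library total to 1000000, which gave reads per 1000000 (CPM) with the scaling of the authors kept. Of values up to 20 reads, 98.3% to 98.5% were whole within 0.1, so reads were recovered for an alternative. Of the 50978 genes of the table, 48007 were kept, after 176 repeated or date-like names, 2723 without and 72 with several matches.

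The 12914 genes with more than 1 CPM in 2 or more libraries entered limma 3.58.1 (mean-variance trend, log2(CPM + 1), R 4.3.3), all 6 libraries in 1 fit with 3 residual degrees of freedom. Adjusted p-values are Benjamini-Hochberg values over all tested genes, two-sided, with calls under 0.05. Fold changes are ratios of mean CPM, and log2 fold changes, their SE and their 95% intervals come from the fit. The fit was tested on simulated data. Groups come from the labels, and named markers from fixed lists. The labels speak of independent dishes, so p-values measure the spread between dishes within a line, pooled over the 3 lines, not between clones. The parental libraries differed more from each other than those of the other lines, and all comparisons share this pooled spread. In a fit of only the lines compared, the SE of Uhrf1 was 0.0896 with PRAMEL7WT and 0.0973 with PRAMEL7ΔN, against 0.0809 in each. Replicate numbers did not pair the samples. The 10 genes and the related lists were chosen with earlier results of these data known. Of each list, up to 3 genes per direction and comparison with the largest change among those that passed are named, beside all 10 members, Pramel7 and the 3 genes most correlated with the member of smallest adjusted p in each comparison with parental ESCs. A gene of the TET cofactor list is not reported here. Alternatives were another pseudocount, filter, scaling, trend, set of libraries and call, the RPKM values as deposited, and limma-voom on recovered reads.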

Additional observations from a re-analysis of the deposited data

Results flagged for a closer look

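Of the 10 members, 5 are listed because the effects of PRAMEL7WT and PRAMEL7ΔN differed. The test was limma on the difference between the lines, with an adjusted p under 0.05. By that test, 10.9% of all tested genes were higher and 9.44% lower with PRAMEL7WT. Dnmt3a was higher with PRAMEL7WT than with PRAMEL7ΔN by 1.41 on the log2 scale, Dnmt3b by 1.17 and Tet3 by 0.62. The call for Tet3 was lost without the filter, with limma-voom and without each of the 4 transgenic libraries in turn, and those for the other 4 genes held in every alternative that tested them. Tet1 and Tet2 were lower with PRAMEL7WT, by -0.61 and -0.996. In all 5 both libraries of the full-length line lay on the same side of both libraries of the deletion line. The genes were picked by the difference between these same libraries, so this separation adds no support. Each transgene is represented by 1 line with its own level of Pramel7 RNA, so line, dose and form of the protein cannot be told apart.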

How the results depend on the processing

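With 2 libraries per line and 3 residual degrees of freedom, small differences could be missed, although some were called. The widest 95% interval of a member, that of Tet3, ran from -0.86 to -0.11 with PRAMEL7WT. Of the alternative values of the members, 468 kept their direction and their side of the threshold, 25 lost and 7 gained a call, and 16 changed sign. None of the 16 concerned a called value. The calls for Dnmt3b with PRAMEL7WT, for Dnmt3a and Tet3 with PRAMEL7ΔN, and for Dnmt3a, Dnmt3b, Tet1 and Tet2 between the lines held in every alternative that tested them, where the deposited RPKM values tested 3 of the 10 members and the filter at 10 CPM left out Tet3.

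With PRAMEL7WT, Dnmt1 went to -0.042 under quantile normalization and to -0.0042 under limma-voom, with a range of -0.13 to 0.13 when single libraries were left out, and Dnmt3a went to 0.020 under median-ratio scaling, with a range of -0.14 to 0.0030. Dnmt3l ranged from -0.13 to 0.22. With PRAMEL7ΔN, Dnmt1 went to 0.024 under median-ratio scaling (range -0.18 to 0.079), and Tdg to 0.033 under quantile normalization and 0.024 under median-ratio scaling (range -0.20 to 0.10). Uhrf1 between the lines went to 0.011 under median-ratio scaling (range -0.017 to 0.0081). The median of the methyl donor list with PRAMEL7ΔN ranged from -0.13 to 0.087, and that of the germline list with PRAMEL7WT from -0.056 to 0.33. The cause was not tested.

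The count of members called higher and lower with PRAMEL7WT, 2 and 3, was 1 and 0 for the deposited RPKM values, and 1 and 1 both for an adjusted and for an unadjusted p under 0.05 with a log2 fold change beyond 0.58. It ranged from 1 to 2 and from 1 to 4 when single libraries were left out. With PRAMEL7ΔN, the 2 higher became 1 without the filter, 1 for the deposited RPKM values and 0 with either fold limit, with a range of 0 to 3, and the 2 lower became 1 above 10 CPM and 0 for the RPKM values, with a range of 2 to 3. Between the lines, the 3 higher and 2 lower became 0 and 0 for the RPKM values, with a range of 2 to 3 for each. For the RPKM values the cause is that only 2347 genes passed the filter.

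Over all tested genes, the calls moved by more than 1.5 times in some alternatives. Without the filter 621 genes were higher and 1275 lower with PRAMEL7WT, 497 were higher with PRAMEL7ΔN, and 812 higher and 615 lower between the lines. The fit of only the lines compared gave 521 higher with PRAMEL7ΔN, and 2296 higher and 2310 lower between the lines. The RPKM values gave 227 and 134, 137 and 134, and 160 and 97. The filter at 10 CPM gave 1098 lower with PRAMEL7ΔN. The unadjusted p with the fold limit gave 600 and 1163, 406 higher with PRAMEL7ΔN, and 928 and 677, and the adjusted p with the fold limit 526 and 1086, 370 and 1086, and 856 and 609. Limma-voom on recovered reads gave 1065 and 2093, 833 and 1671, and 1292 and 1252. Leaving out single libraries gave 216 to 1701 higher and 447 to 2699 lower with PRAMEL7WT, 218 to 1492 and 623 to 2656 with PRAMEL7ΔN, and 378 to 2320 and 308 to 2318 between the lines.

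Same-numbered libraries did not deviate together: the correlations of their deviations were 0.207 for parental ESCs with PRAMEL7WT, -0.249 for parental ESCs with PRAMEL7ΔN and -0.103 for the transgenic lines. With the replicate number as a block, 0 of the calls of the members changed. Their log2 fold changes could not change, since each line holds 1 library of each number. The members called were 2 higher and 3 lower with PRAMEL7WT, 2 and 2 with PRAMEL7ΔN, and 3 and 2 between the lines. Over all tested genes the block gave 955 higher and 1774 lower, 652 and 1460, and 1206 and 975 in the 3 comparisons.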
